A study of Mus musculus with 33 samples.

Results

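The genes described here encode the protein core of the splicing machinery and its 2 large families of accessory RNA-binding proteins. They were chosen by symbol from the deposited expression tables of MEF and NPC reprogramming: all symbols that begin with Hnrnp, and all that consist of Srsf, Snrp, Sf3a or Sf3b followed only by their member's letters or digits. This gave 51 of the 37620 genes listed, in 4 classes. They are 11 SR protein genes, 20 hnRNP genes, 11 genes of the Sm ring and of the U1 and U2 snRNPs (small nuclear ribonucleoproteins), and 9 genes of the SF3a and SF3b complexes.

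Introns are removed from pre-mRNA by the spliceosome, which assembles anew on each intron from snRNPs. The Sm proteins form a ring around the RNA of most spliceosomal snRNPs, the U1 snRNP recognises the splice site at the start of the intron, and the U2 snRNP, with its SF3a and SF3b complexes, recognises the branch point near its end. SR proteins bind exonic enhancers and favour inclusion of the exon, whereas many hnRNP proteins bind silencers and oppose it, and both families also act in mRNA export, stability and translation. Many SR genes carry alternative exons whose inclusion sends their own transcripts to decay, and counts per gene do not separate such isoforms.

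The study followed reprogramming of mouse cells to pluripotency by Sox2, Klf4 and Myc (SKM). The cells are secondary, which means that they descend from cells already carrying inducible factors, and per the labels' protocols the factors were switched on with doxycycline in mouse ES medium. RNA-seq covered fibroblasts of mouse embryos (MEFs) and neural progenitors (NPCs), sampled on day 0, day 2, day 4, day 8 and day 12 with 2 libraries each time. It also covered the pluripotent lines SKM iPSC, induced by the same factors, and R1 ESC, an embryonic stem cell line, with 1 library each. MEF-derived cells of days 4, 8 and 12 and NPC-derived cells of days 8 and 12 carry a GFP label, and the series design speaks of EGFP-positive populations. Day and GFP label therefore change together at day 4 of the MEF series and at day 8 of the NPC series. Sorted cells were lysed in TRIzol and cultured cells were extracted on RNeasy columns, so the extraction cannot be told apart from the sort. The 2 libraries of MEF day 4 are numbered 1 and 3. For NPC days 2 and 4 another label field gives earlier days, and the titles were followed. The columns of NPC day 4 are headed as grown with feeders (replicate 1) and without (replicate 2). The column taken for SKM iPSC bears an unexplained 9 and was matched by elimination. Genotype, strain and age of the animals were not given in the sources used here, and neither was the origin of the replicates (1 culture or several). A p-value therefore measures only the spread between the 2 libraries within the MEF and NPC groups, and none between the lines.

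The 22 libraries held 15902838 to 20102260 counts each, and the 51 genes took 0.784% (MEF day 0 replicate 2) to 2.02% (SKM iPSC) of them. The summed level of 7 fibroblast markers was 37178 and 17466 CPM in MEFs on day 0, against 511 and 387 CPM in NPCs on day 0, and that of 7 neural progenitor markers was 3089 and 3075 CPM in NPCs. The 6 pluripotent markers summed to 513 and 528 CPM in MEF-derived and 716 and 599.6 CPM in NPC-derived cells on day 12, below R1 ESC (6202 CPM) and SKM iPSC (4383 CPM). Some libraries stood apart. MEF day 0 held macrophage marker transcripts (205 and 379.9 CPM over 6 genes, against 4.42 and 5.25 CPM in NPCs on day 0). NPC day 4 replicate 1, the one with feeders, had 2785 CPM of fibroblast markers and 92.5 CPM of macrophage markers, against 79.2 and 6.79 CPM in replicate 2. NPC day 8 replicate 1 had snRNP and hnRNP sums unlike those of replicate 2, and the counts of calls among the 50 genes tested that rest on it are given with and without it. The ratio of summed snRNP to summed hnRNP levels was higher in replicate 1 than in the other replicate in every MEF and NPC group. In such bulk samples, fewer cells of a type and less RNA per cell cannot be told apart.

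Levels are CPM, that is counts relative to library size, with sizes scaled by the trimmed mean of M values (TMM), given for each library with replicate 1 before replicate 2 (for MEF day 4, before replicate 3). Fold changes are log2 values ± SE from edgeR's quasi-likelihood test over all genes, and a gene was called higher or lower at a Benjamini-Hochberg adjusted p under 0.05. Of the 51 genes 50 passed the filter in every fit. The exception was Snrpf, which encodes the Sm ring protein F and held only 0 to 20 counts per library. CPM values are not corrected for transcript length, so levels of different genes are not compared.

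Some counts are less certain than others. In the RefSeq gene table (GRCm38.p6) the spans of 13 of the 51 genes overlap another protein-coding gene, and whether the counting used strand is not given in the sources used here. Among them are Srsf2, which overlaps Mfsd11, Hnrnph3, which overlaps Rufy2, and Snrpf, which overlaps Ccdc38. These 3 genes had low counts in every library, with highest levels of 31.7 CPM for Srsf2, 18.04 CPM for Hnrnph3 and 0.928 CPM for Snrpf. Genes such as Hnrnpa1, Snrpe and Snrpg have processed pseudogenes whose reads may have been split or shared.

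The promoters of 45 of the 51 genes were found in the RefSeq promoter table (GRCm38.p6), with 59 start sites in all. Those of the 4 SR genes that fell together on day 4 of MEF reprogramming, and of the 2 snRNP genes with the largest called changes in the snRNP class, are given as the 250 bases upstream of the start, read 5′ to 3′ on the gene's strand. Capitals mark matches, on either strand, to the GC box GGGCGG, to CCGGAAGT, a core bound by ETS family factors, and to the E-box CACGTG, the site bound by Myc with its partner Max. They lie at chr11:88047123-88047372 (Srsf1), chr12:80945249-80945498 (Srsf5), chr2:162931258-162931507 (Srsf6), chr4:135855821-135856070 (Srsf10), chr7:66060086-66060335 (Snrpa1) and chr7:19149588-19149837 (Snrpd2), all on the plus strand.
Srsf1: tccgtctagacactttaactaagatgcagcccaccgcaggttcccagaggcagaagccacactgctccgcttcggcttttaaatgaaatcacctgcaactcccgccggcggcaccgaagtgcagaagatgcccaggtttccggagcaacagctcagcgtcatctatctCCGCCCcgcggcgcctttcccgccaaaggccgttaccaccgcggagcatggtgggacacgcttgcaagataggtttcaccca
Srsf5: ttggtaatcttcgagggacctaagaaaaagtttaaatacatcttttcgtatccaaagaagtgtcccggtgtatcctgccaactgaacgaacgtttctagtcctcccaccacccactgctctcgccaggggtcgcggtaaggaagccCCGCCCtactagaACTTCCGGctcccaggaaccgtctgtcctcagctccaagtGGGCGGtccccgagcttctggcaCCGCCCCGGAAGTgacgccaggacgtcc
Srsf6: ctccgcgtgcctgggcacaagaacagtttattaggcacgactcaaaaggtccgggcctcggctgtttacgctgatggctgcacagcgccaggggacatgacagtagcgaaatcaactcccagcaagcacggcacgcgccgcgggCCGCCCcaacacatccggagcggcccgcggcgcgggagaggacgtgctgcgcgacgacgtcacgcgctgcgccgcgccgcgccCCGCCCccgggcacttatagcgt
Srsf10: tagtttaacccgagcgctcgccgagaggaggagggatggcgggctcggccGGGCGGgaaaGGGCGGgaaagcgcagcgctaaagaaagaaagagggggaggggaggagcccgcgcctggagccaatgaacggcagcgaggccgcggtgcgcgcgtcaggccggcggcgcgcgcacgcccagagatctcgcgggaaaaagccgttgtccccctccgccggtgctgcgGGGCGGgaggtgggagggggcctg
Snrpa1: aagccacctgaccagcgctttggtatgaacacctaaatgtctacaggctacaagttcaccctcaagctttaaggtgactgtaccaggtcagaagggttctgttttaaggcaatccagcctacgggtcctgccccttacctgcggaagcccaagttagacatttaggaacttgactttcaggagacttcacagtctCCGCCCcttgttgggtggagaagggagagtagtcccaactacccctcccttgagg
Snrpd2: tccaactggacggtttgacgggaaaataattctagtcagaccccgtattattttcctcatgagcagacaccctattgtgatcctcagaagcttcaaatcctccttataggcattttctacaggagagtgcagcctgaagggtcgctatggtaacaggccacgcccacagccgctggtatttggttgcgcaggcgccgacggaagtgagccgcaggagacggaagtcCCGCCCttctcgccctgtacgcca

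All 6 windows held the GC box, Srsf5 alone held CCGGAAGT, and none held CACGTG. Over the 59 promoters, GGGCGG occurred in 42 (71.2%), against 55.4% of the promoters of genes passing the filter and 32.7% of all promoters in the table. CCGGAAGT occurred in 9 (15.3%), against 5.09% and 2.88%, and lay upstream of Srsf5, Srsf4, Srsf11, Hnrnpd, Hnrnpf, Sf3a3 and Sf3b2. CACGTG occurred in 5 (8.47%), against 8.03% and 6.02%, upstream of Snrpa, Hnrnpa3, Hnrnpd and Hnrnpf. In 1 of the 59 windows, that of Srsf5, matches of different motifs overlapped. The TATA sequence TATAAA was found in 8.47% of the windows, against 6.91% and 12.4%, and CCAAT in 44.1%, against 34.8% and 33.8%. The median GC content of the 59 windows was 61.6%, against 59.2% for promoters of genes passing the filter and 52.4% for all promoters. The median number of CG pairs was 20, against 14 and 6. The part of this composition in the motif shares was not tested. A match describes letters in a window and shows no binding.

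**Figure D1:**
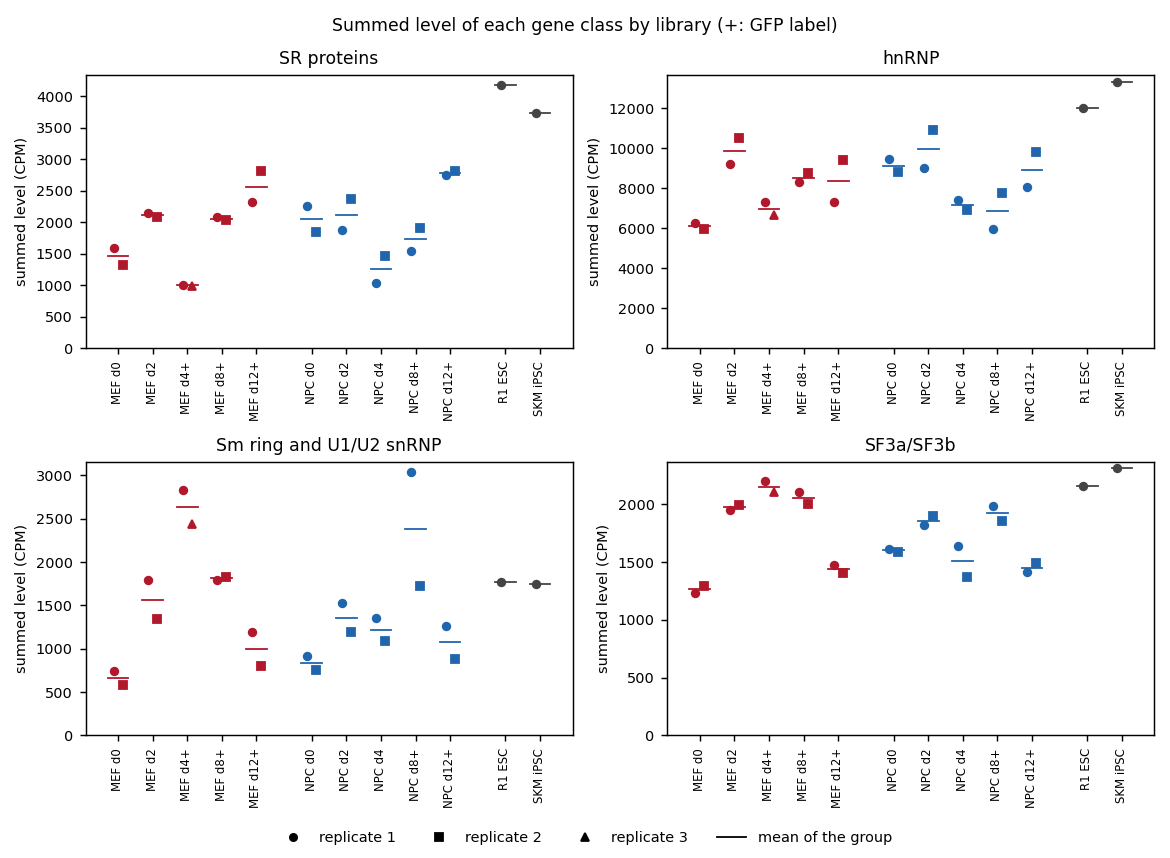
Summed level of each gene class (CPM, linear axis from 0) in each of the 22 libraries, ordered by day within MEF and NPC and followed by the lines; points are libraries and lines are group means. SR genes were lowest on MEF day 4 (1012 and 994 CPM), where the Sm ring and U1/U2 snRNP genes were at 2830.3 and 2436 CPM, and the highest SR and hnRNP sums were those of the lines.

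In cells before induction, none of the genes was higher in MEFs than in NPCs and 11 of 50 were lower. Over all genes tested 16.3% were higher and 17.4% lower. At an unadjusted p under 0.05 edgeR gave 0 higher and 16 lower, and DESeq2 called 0 higher and 13 lower. Over all 16188 genes tested, 6928 had such a p in either direction and DESeq2 called 5836. The median log2 fold change of MEFs over NPCs was -0.45 over the 50 genes, against -0.01 over all genes. The 11 were 5 hnRNP, 3 SR, 2 SF3 and 1 snRNP gene.

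Hnrnpf, which binds runs of G, was at 290.2 and 186 CPM in MEFs, against 506 and 465 CPM in NPCs (log2 fold change -1.03 ± 0.22, adjusted p = 0.00199). Hnrnpa1, which binds splicing silencers, was at 449.8 and 376 CPM in MEFs, against 818 and 825 CPM in NPCs (-0.99 ± 0.23). Hnrnpdl, a paralogue of the mRNA decay factor Hnrnpd, was at 197 and 139 CPM in MEFs, against 331 and 366 CPM in NPCs (-1.05 ± 0.20). In each of these the MEF libraries lay below the NPC libraries without overlap. The SF3 genes Sf3b3, a large scaffold subunit of SF3b, and Sf3a1, the largest of SF3a, differed by -0.94 ± 0.19 and -0.83 ± 0.16. These 5 calls held with each library left out in turn. The others were Hnrnpa2b1 (-0.76), Hnrnpa3 (-0.93), Srsf3 (-0.86), Srsf4 (-1.07), Srsf7 (-0.99) and Snrpd1 (-0.53). The number lower was 6 without MEF day 0 replicate 2, 6 without NPC day 0 replicate 1 and 3 with only the compared groups in the fit. In the same contrast the 12 cell cycle genes examined were all lower and the 6 macrophage markers all higher in MEFs, and their part in these differences was not tested.

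On day 2 of induction 23 of the 50 genes rose in MEFs relative to day 0 and 2 fell, where 20.6% of all genes rose and 23.8% fell. By class, 7 of 9 SF3 genes, 6 of 10 snRNP genes, 5 of 11 SR genes and 5 of 20 hnRNP genes rose. The hnRNP count was near the share of all genes. The median log2 fold change was 1.13 for snRNP, 0.83 for SF3, 0.45 for hnRNP and 0.35 for SR genes, against -0.03 over all genes.

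Snrpa1, a protein of the U2 snRNP, was at 189 and 203 CPM in MEFs on day 2, against 43.9 and 56 CPM on day 0 (1.91 ± 0.22, adjusted p = 0.000214). The Sm ring gene Snrpd3 was at 240.3 and 189 CPM on day 2, against 74.2 and 81 CPM on day 0 (1.41 ± 0.28), and Snrpd1, another Sm ring gene, at 192 and 181 CPM, against 67.3 and 85.1 CPM (1.23 ± 0.20). Snrpb, which encodes SmB, was at 398 and 279.7 CPM on day 2, against 143 and 111 CPM on day 0 (1.36 ± 0.34). In all 4 the day 2 libraries lay above the day 0 libraries. Snrpe (1.25), of the Sm ring, and Snrpb2 (0.62), the partner of Snrpa1 in the U2 snRNP, also rose. The values of the remaining tested members were 1.03 for Snrpg, 0.97 for Snrpc, 0.91 for Snrpd2 and 0.46 for Snrpa, and none was called.

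Sf3a2, which contacts the branch point region, was at 146 and 115 CPM in MEFs on day 2, against 69 and 46.9 CPM on day 0 (1.12 ± 0.26). Sf3b3 was at 330.1 and 330.0 CPM, against 156 and 142 CPM on day 0 (1.09 ± 0.21). Every SF3a gene rose, with Sf3a1 at 0.82 and Sf3a3 at 0.78, and so did Sf3b4 (0.94), Sf3b5 (0.98) and Sf3b6 (0.83), which lies against the branch point adenosine. Sf3b1, the subunit that clasps the branch helix, had 371 and 435 CPM on day 2, against 356 and 471 CPM on day 0 (-0.09 ± 0.23), with overlapping libraries, and was not called.

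Hnrnpa1 was at 1156 and 1436 CPM in MEFs on day 2, against 449.8 and 376 CPM on day 0 (1.59 ± 0.26), and Hnrnpf at 748 and 693 CPM, against 290.2 and 186 CPM (1.54 ± 0.25). Hnrnpa2b1 (0.76), Hnrnpd (0.61) and Hnrnpm (0.60) rose too. Among SR genes Srsf2 (1.57), Srsf7 (1.18), Srsf3 (0.96), Srsf1 (0.90) and Srsf10 (0.76) rose. Srsf9 was at 44 and 30.6 CPM on day 2, against 66.8 and 54 CPM on day 0, and fell by 0.75 on the log2 scale. Srsf12 was at 0.161 and 0.14 CPM on day 2, against 2.63 and 1.07 CPM on day 0, and fell by 3.62.

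Of the 25 calls in MEFs on day 2, 10 held with each library left out in turn: Snrpa1, Snrpd1, Snrpd3, Sf3a1, Sf3a2, Sf3a3, Sf3b3, Sf3b4, Hnrnpa1 and Hnrnpf. The genes that rose numbered 12 without MEF day 0 replicate 2, 11 without MEF day 2 replicate 1 and 12 with only the day 0 and day 2 groups in the fit. The 2 falls were lost without MEF day 0 replicate 1. In the same contrast 11 of 12 cell cycle genes rose and all 7 fibroblast and all 6 macrophage markers fell, and their part in the result was not tested.

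**Figure D2:**
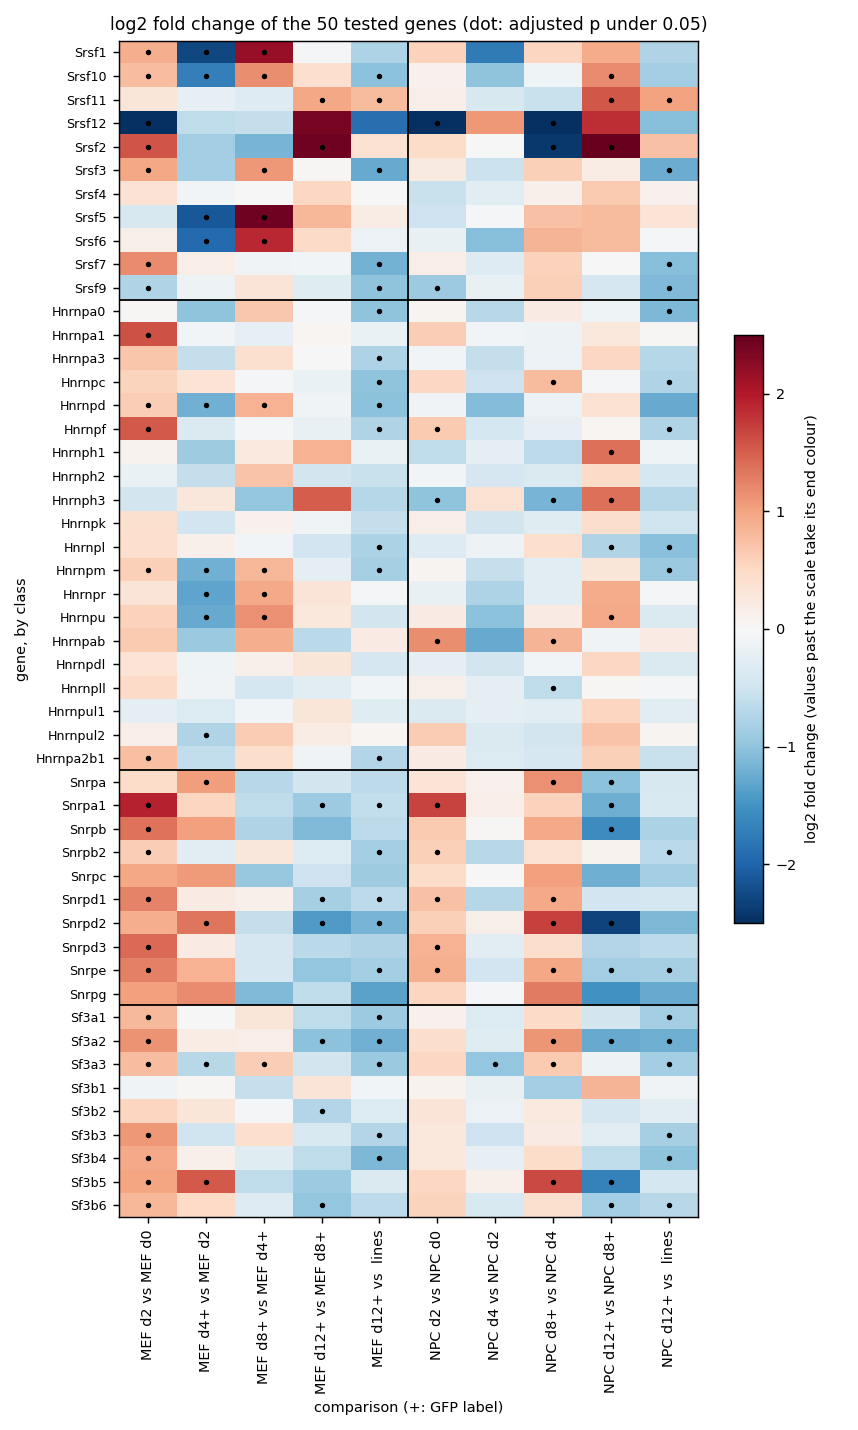
Log2 fold change of the 50 tested genes (one line each, ordered by class) in 10 comparisons of consecutive days and of day 12 with the lines, for MEFs on the left and NPCs on the right; red is higher and blue lower in the group named first, and a dot marks adjusted p under 0.05. In the MEF day 4 column 4 SR genes are called lower and 2 snRNP genes higher, and the first column is red for most genes.

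In NPCs on day 2, 7 of 50 genes rose and 3 fell relative to day 0, where 17.8% of all genes rose and 16.9% fell. The 7 rises were 5 of 10 snRNP and 2 of 20 hnRNP genes, and the hnRNP count was below the share of all genes. Snrpa1 was at 146 and 173 CPM in NPCs on day 2, against 52.2 and 51 CPM on day 0 (1.68 ± 0.30, adjusted p = 0.00258), without overlap, and this call held with each library left out. The others were Hnrnpab (1.16), Snrpd3 (0.88), Snrpe (0.88), Snrpd1 (0.74), Hnrnpf (0.65) and Snrpb2 (0.59). None of the 9 SF3 genes was called, with values of 0.09 (Sf3b1) to 0.55 (Sf3b6). The falls were Srsf12, at 0.188 and 0.708 CPM on day 2, against 4.56 and 4.27 CPM on day 0 (-3.22 ± 0.68), Srsf9 (-0.91) and Hnrnph3 (-1.01). The rises numbered 1 without NPC day 0 replicate 1, 1 without NPC day 0 replicate 2, 2 without NPC day 2 replicate 1 and 3 without NPC day 2 replicate 2, and the falls 1 in each. With only the compared groups in the fit 11 rose. In the same contrast 4 of 7 fibroblast markers and 3 of 6 neural progenitor markers fell. Sox2, a neural progenitor marker and one of the induced factors, rose (1.84), as did 4 of 5 epithelial markers. The part of these genes in the result was not tested.

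The difference between the day 2 responses was tested as an interaction. The response in MEFs exceeded that in NPCs for Sf3b3 by 0.95 ± 0.27 (adjusted p = 0.0429) and for Sf3a1 by 0.83 ± 0.23 (adjusted p = 0.0365), and no gene went the other way; 4.08% of all genes were called higher and 3.98% lower. Sf3a1 was at 198 and 198 CPM in MEFs on day 2, against 100.1 and 115 CPM on day 0, and at 188 and 207 CPM in NPCs on day 2, against 189.7 and 193 CPM on day 0. The response of both genes in NPCs was near 0 (0.25 and 0.10) from a level on day 0 above that of MEFs. Without MEF day 0 replicate 1 there were 7 calls, Sf3a1 not among them, without MEF day 0 replicate 2 Sf3b3 was not called, and without any single one of MEF day 2 replicates 1 and 2, NPC day 0 replicates 1 and 2 and NPC day 2 replicates 1 and 2 there was no call. A fit of the compared groups alone gave no call either. Of the 12 cell cycle genes 11 were called higher in this interaction, and their part in it was not tested.

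On day 4, in MEF-derived cells with the GFP label, 4 of 11 SR genes fell relative to day 2 and none of the 10 snRNP genes did. The difference between the classes was not tested. Of the 50 genes 10 fell and 3 rose, where 10.9% of all genes fell and 10.5% rose. The falls were 4 of 11 SR, 5 of 20 hnRNP and 1 of 9 SF3 genes, and the rises 2 of 10 snRNP genes and 1 SF3 gene. The median log2 fold change was -0.85 for SR and -0.60 for hnRNP genes, but 0.13 for SF3 and 0.94 for snRNP genes, against 0.00 over all genes.

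Srsf1, the founding SR protein, was at 126 and 67.4 CPM on MEF day 4, against 433 and 513 CPM on day 2 (-2.28 ± 0.32, adjusted p = 0.00409). Srsf5 was at 41.8 and 69 CPM on day 4, against 208 and 276 CPM on day 2 (-2.12 ± 0.33, adjusted p = 0.00549). Srsf6 was at 71.1 and 64.4 CPM, against 219 and 307 CPM (-1.95 ± 0.25, adjusted p = 0.00319). Each of these lay on day 4 below every other MEF-derived library. Srsf10, which represses splicing when it is dephosphorylated, was at 63.1 and 74.5 CPM on day 4, against 248 and 202 CPM on day 2 (-1.70 ± 0.22). The 4 falls held with each library left out in turn. The other SR genes were not called. Among them Srsf3 had 185 and 246 CPM on day 4, against 434 and 344 CPM on day 2 (-0.85 ± 0.31), and Srsf7, its nearest relative, had 219.6 and 241 CPM, against 265 and 149.8 CPM (0.16 ± 0.37).

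**Figure D3:**
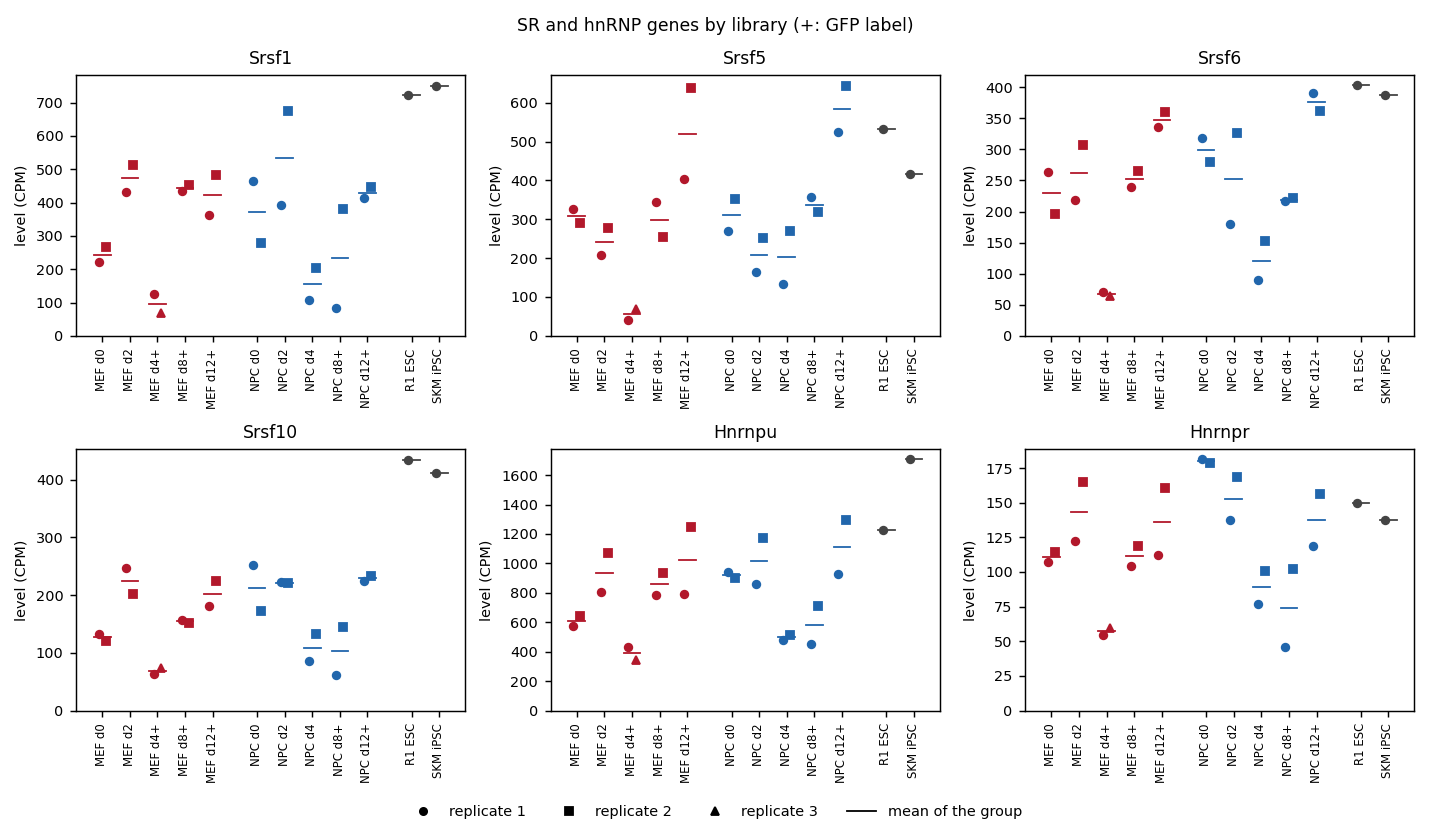
Level (CPM, linear axis from 0) of Srsf1, Srsf5, Srsf6, Srsf10, Hnrnpu and Hnrnpr in each library, ordered by day within MEF and NPC; points are libraries and lines group means. The MEF day 4 libraries are the lowest of the MEF series in all 6 genes, and NPC day 8 replicate 1 lies below replicate 2 in all but Srsf5.

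The hnRNP genes that fell on MEF day 4 were Hnrnpr, Hnrnpu, Hnrnpd, Hnrnpm and Hnrnpul2. Hnrnpu, a nuclear scaffold protein, was at 431 and 347 CPM on day 4, against 808 and 1067 CPM on day 2 (-1.26 ± 0.29), and Hnrnpr at 54.6 and 59.5 CPM, against 122 and 165 CPM (-1.32 ± 0.25). Hnrnpd, which binds AU-rich elements, was at 115 and 104 CPM, against 229 and 278 CPM (-1.20 ± 0.21). Hnrnpm (-1.20) and Hnrnpul2 (-0.76) fell too, and so did the SF3 gene Sf3a3 (-0.69).

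The 3 rises were Sf3b5, a small SF3b subunit, at 236 and 243 CPM on day 4, against 99.1 and 66.5 CPM on day 2 (1.54 ± 0.31), Snrpd2 at 311 and 255 CPM, against 145 and 81.3 CPM (1.33 ± 0.35), and Snrpa, a protein of the U1 snRNP, at 214 and 216 CPM, against 129 and 80 CPM (1.05 ± 0.32). These and the hnRNP and Sf3a3 calls did not hold with every library left out. Without MEF day 2 replicate 2 or without MEF day 4 replicate 3 the falls were the 4 SR genes alone and there was no rise; without MEF day 4 replicate 1 there were 6 falls and no rise. With only the compared groups in the fit 15 fell and 6 rose. In the same contrast 4 of 5 epithelial and 4 of 6 pluripotent markers rose, and their part in the result was not tested. Snrpb, at 705 and 664 CPM on day 4, against 398 and 279.7 CPM on day 2 (1.02 ± 0.34), was not called although the libraries did not overlap. The ratio of summed snRNP to summed SR levels was 2.8 and 2.45 in the MEF day 4 libraries, against 0.838 and 0.642 on day 2. The SR sum was 1012 and 994 CPM on day 4, against 2142 and 2086 CPM on day 2, and the snRNP sum 2830.3 and 2436 CPM, against 1795 and 1340.2 CPM. The sort and its TRIzol lysis begin at this day in the MEF series and cannot be told apart from it.

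NPCs on day 4 carry no GFP label. None of the 50 genes rose relative to NPC day 2 and 1 fell, by edgeR's quasi-likelihood test, where 1.68% of all genes rose and 0.546% fell. At an unadjusted p under 0.05 none rose and 12 fell, and DESeq2 called 7 lower. Over all 15565 genes tested, 3028 had such a p in either direction and DESeq2 called 1472. The fall was Sf3a3, at 68.1 and 63.3 CPM on day 4, against 112 and 144 CPM on day 2 (-0.96 ± 0.21, adjusted p = 0.0485), and it was lost with any of NPC day 2 replicates 1 and 2 or NPC day 4 replicates 1 and 2 left out. Srsf1 had 108 and 203 CPM on day 4, against 392 and 674 CPM on day 2 (-1.78 ± 0.60), and Srsf6 89.4 and 152 CPM, against 180.4 and 326 CPM (-1.06 ± 0.33). Srsf5 had 133 and 271 CPM on day 4, against 165 and 252 CPM on day 2 (-0.04 ± 0.35), with overlapping libraries. The lower library of day 4 in Srsf1, Srsf5, Srsf6 and Srsf10 was replicate 1 each time, the one with feeders and with fibroblast marker transcripts, whose part was not tested. Whether the day 4 response differed between MEFs and NPCs was not tested, as the GFP label and the extraction differ too.

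On day 8 Srsf1, Srsf5 and Srsf6 of MEF-derived cells were again well above day 4. Relative to day 4, 10 of the 50 genes rose and none fell, where 11.1% of all genes rose and 8.68% fell. At an unadjusted p under 0.05 edgeR gave 13 higher and 3 lower, and DESeq2 called 10 higher and 2 lower. Over all 15246 genes tested, 5340 had such a p in either direction and DESeq2 called 3880. Srsf5 was at 345 and 254 CPM on MEF day 8, against 41.8 and 69 CPM on day 4 (2.43 ± 0.34, adjusted p = 0.00236). Srsf1 was at 434 and 452 CPM, against 126 and 67.4 CPM (2.18 ± 0.32), and Srsf6 at 239 and 265 CPM, against 71.1 and 64.4 CPM (1.89 ± 0.25). The day 8 libraries lay above those of day 4 in all 3, and these calls held with each library left out. Srsf10 (1.16), Srsf3 (1.08), Hnrnpu (1.14), Hnrnpr (0.96), Hnrnpd (0.87), Hnrnpm (0.82) and Sf3a3 (0.62) also rose. The rises numbered 4 without MEF day 4 replicate 3, and 3 without MEF day 4 replicate 1 or either replicate of MEF day 8. With only the compared groups in the fit 17 rose and 12 fell. Both days carry the GFP label. This comparison shares the MEF day 4 libraries with the one of day 4 over day 2, so a rise here and a fall there are not independent. The snRNP genes had a median of -0.62, with none called.

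In NPC-derived cells the GFP label begins at day 8, where 9 genes rose and 4 fell relative to day 4, against 15.4% and 17.2% of all genes. The rises were Snrpd2 (1.71 ± 0.48), Snrpa (1.13), Snrpe (0.97), Snrpd1 (0.96), Sf3b5 (1.64 ± 0.45), Sf3a2 (1.10), Sf3a3 (0.66), Hnrnpab (0.84) and Hnrnpc (0.79). The falls were Srsf12, Srsf2, Hnrnph3 and Hnrnpll. Snrpd2 was at 522 and 192 CPM on NPC day 8, against 129 and 88.8 CPM on day 4, and Sf3b5 at 356 and 144 CPM, against 94.3 and 65.6 CPM. The day 8 libraries lay above those of day 4, but replicate 1 far above replicate 2. None of the 13 calls held with each library left out. Without NPC day 8 replicate 1 there were 2 rises and no fall, without NPC day 8 replicate 2 14 rises and 11 falls, and without either replicate of NPC day 4 2 rises and 1 fall. A fit of the compared groups alone gave no rise and 1 fall. In the same contrast 9 of 12 cell cycle genes rose and all 6 neural progenitor and 6 of 7 fibroblast markers fell, and their part in the result was not tested. Srsf1, at 84.1 and 381 CPM on NPC day 8, against 108 and 203 CPM on day 4, had a log2 fold change of 0.54 ± 0.59, which was -0.86 without NPC day 8 replicate 2.

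The NPC day 8 replicates differed in the summed levels of the snRNP and hnRNP genes. Replicate 1 had 3034 CPM over the snRNP genes and 5934 CPM over the hnRNP genes, whereas replicate 2 had 1719 and 7758 CPM. The snRNP to hnRNP ratio was 0.511 in replicate 1 and 0.222 in replicate 2, against 0.21 to 0.389 in the GFP-labelled MEF libraries of days 4 and 8 and 0.0849 to 0.164 in the day 12 libraries. Hnrnpd was at 59.3 and 195 CPM and Sf3b1 at 119.6 and 261 CPM in replicates 1 and 2. In the same order Snrpg was at 152 and 52.3 CPM and Snrpc at 312 and 126 CPM. Not every gene followed its class, as Hnrnpc was at 736 and 499 CPM and Snrpb2 at 79.1 and 80.7 CPM. The SF3 sum was 1986 and 1855 CPM, with Sf3b5 at 356 and 144 CPM. The TMM factor of replicate 1 was 0.754, the lowest of the 22 libraries. A higher snRNP to hnRNP ratio in replicate 1 was not particular to NPC day 8, as every MEF and NPC group had it. In replicates 1 and 2 the ratio was 0.195 and 0.127 on MEF day 2 and 0.169 and 0.11 on NPC day 2. On day 12 it was 0.164 and 0.0849 in MEF-derived and 0.157 and 0.0901 in NPC-derived cells. The cause was not tested.

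**Figure D4:**
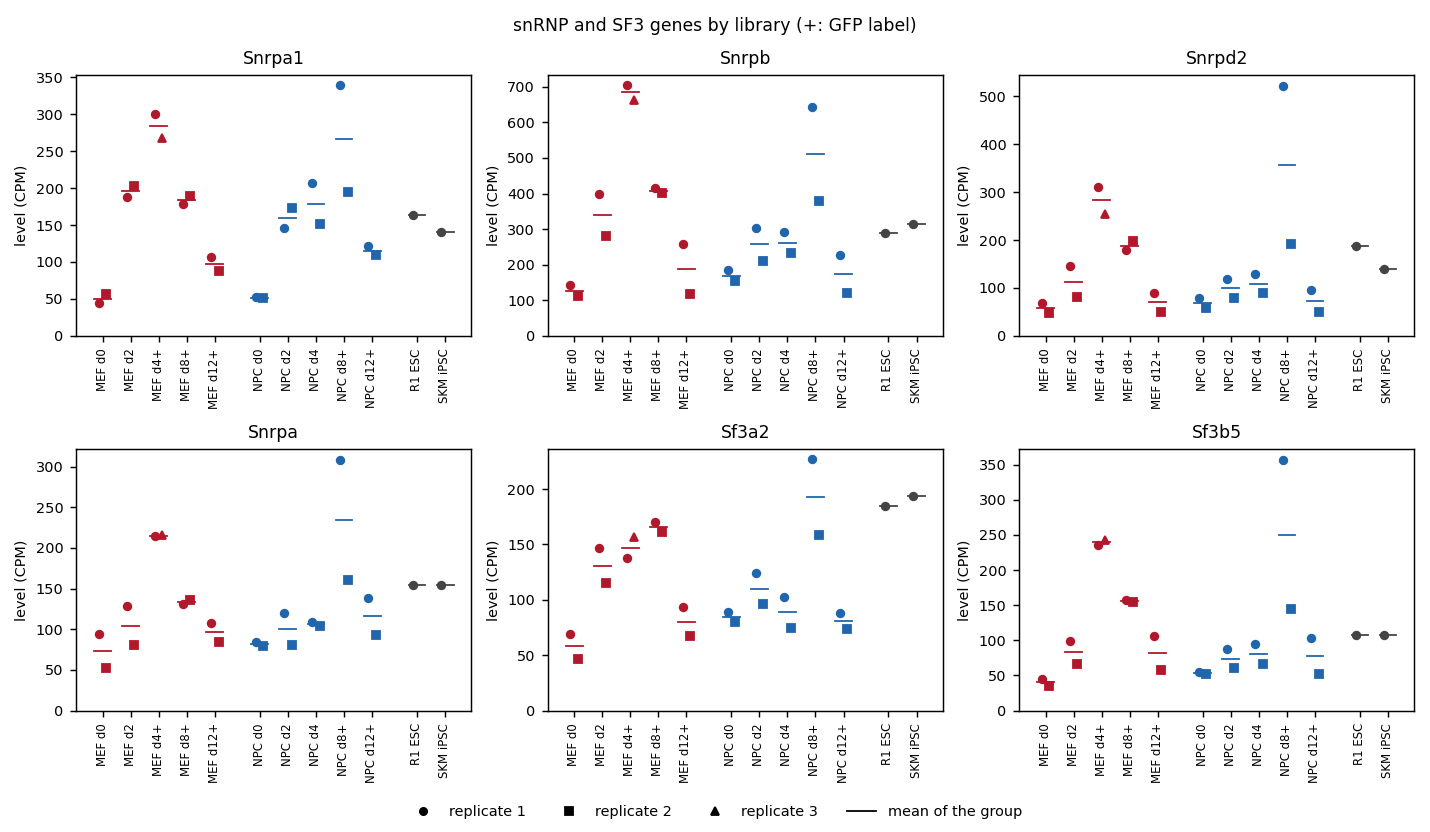
Level (CPM, linear axis from 0) of the snRNP genes Snrpa1, Snrpb, Snrpd2 and Snrpa and the SF3 genes Sf3a2 and Sf3b5 in each library, ordered by day within MEF and NPC; points are libraries and lines group means. The highest MEF-derived libraries are those of day 4, except in Sf3a2 with 171 and 161 CPM on day 8, and the highest library of all is NPC day 8 replicate 1, except in Snrpb, where both MEF day 4 libraries are higher.

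All libraries of days 8 and 12 carry the GFP label. In MEF-derived cells 6 genes, 3 of 10 snRNP and 3 of 9 SF3 genes, fell and 2 rose on day 12 relative to day 8, where 4.1% of all genes fell and 7.33% rose. The falls were Snrpd2, at 90.3 and 49.7 CPM on day 12, against 179 and 198 CPM on day 8 (-1.41 ± 0.35, adjusted p = 0.0364), Snrpa1, at 106 and 87.5 CPM, against 179 and 189.8 CPM (-0.91 ± 0.21), Sf3a2 (-1.03), Sf3b6 (-0.97), Snrpd1 (-0.84) and Sf3b2 (-0.73). For Snrpd2 and Snrpa1 the day 12 libraries lay below those of day 8. The rises were Srsf2, at 22.7 and 16.1 CPM on day 12, against 2.66 and 4.62 CPM on day 8 (2.43 ± 0.48), and Srsf11 (0.97 ± 0.26). All 10 snRNP genes had values below 0 and their median was -0.75, against 0.06 over all genes. There was no call without MEF day 8 replicate 1, without MEF day 8 replicate 2 or without MEF day 12 replicate 2, and 6 falls and 2 rises without MEF day 12 replicate 1, though Snrpd1 and Sf3b2 were then not called and Snrpb and Sf3b5 were. None of the 8 calls held with each library left out.

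In NPC-derived cells 9 genes fell and 6 rose on day 12 relative to day 8, where 15.9% of all genes fell and 13.5% rose. The falls were 5 of 10 snRNP, 3 of 9 SF3 and 1 of 20 hnRNP genes, and none of the 15 calls held with each library left out. Snrpd2 was at 95 and 50.5 CPM on day 12, against 522 and 192 CPM on day 8 (-2.31 ± 0.50), and Snrpb at 227 and 121 CPM, against 643 and 379.5 CPM (-1.56 ± 0.37). Sf3b5 (-1.70), Sf3a2 (-1.26), Snrpa1 (-1.21), Snrpa (-1.02), Snrpe (-0.87), Sf3b6 (-0.86) and Hnrnpl (-0.75) fell as well. Srsf2, at 31.7 and 18.4 CPM on day 12, against 1.65 and 3.41 CPM on day 8 (3.32 ± 0.54, adjusted p = 0.00632), Srsf11 (1.55 ± 0.32), Srsf10 (1.18), Hnrnph1 (1.37), Hnrnph3 (1.38) and Hnrnpu (0.95) rose. Without NPC day 8 replicate 1 there were 2 rises, Srsf2 and Srsf11, and no fall, without NPC day 8 replicate 2 16 rises and 13 falls, without NPC day 12 replicate 1 4 rises and 4 falls, and without NPC day 12 replicate 2 no call. A fit of the compared groups alone gave 1 rise and 2 falls.

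Between MEF-derived and NPC-derived cells on day 12 edgeR's quasi-likelihood test called none of the 50. It called 0% of all genes in either direction. None of the 50 had an unadjusted p under 0.05 in that test, and DESeq2 called none. Over all 16188 genes tested, 862 had such a p in either direction and DESeq2 called 64. The log2 differences ran from -0.82 (Srsf12, under 1 CPM in all 4 libraries) to 0.24 (Hnrnpl), with a median of -0.07. A p above the threshold does not show that levels were the same. Hnrnpf, for example, was at 474 and 486 CPM in MEF-derived and 452 and 519 CPM in NPC-derived cells on day 12.

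Relative to day 0, day 12 MEF-derived cells had 14 genes higher and 1 lower, against 26.3% and 24.6% of all genes. Hnrnpa1 was at 928 and 1262 CPM on day 12, against 449.8 and 376 CPM on day 0 (1.37 ± 0.26, adjusted p = 0.00182), and Srsf3, which also acts in mRNA export, at 475 and 448 CPM, against 251 and 132 CPM (1.23 ± 0.31). Hnrnpf (0.97), Snrpa1 (0.92) and Srsf2 (1.98) were higher too, and these 5 calls held with each library left out. The other higher genes were Srsf4, Srsf7, Srsf10, Srsf11, Hnrnpc, Hnrnpdl, Sf3b3, Sf3b5 and Snrpd1, with log2 fold changes of 0.62 (Sf3b3) to 1.20 (Srsf7), and the lower gene was Srsf9 (-0.84). The higher genes numbered 7 without MEF day 0 replicate 2 and 2 with only the compared groups in the fit. In the same contrast 10 of 12 cell cycle genes were higher and all 7 fibroblast and 5 of 6 macrophage markers lower, and their part was not tested.

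In NPC-derived cells on day 12, 4 genes were higher than on day 0 and 4 lower, against 24.1% and 23.5% of all genes. Higher were Snrpa1, at 122 and 109 CPM on day 12, against 52.2 and 51 CPM on day 0 (1.21 ± 0.30, adjusted p = 0.00734), Srsf2 (1.38), Srsf5 (0.96) and Hnrnpc (0.73). Lower were Srsf12 (-2.81), Srsf9 (-0.91), Hnrnpl (-0.76) and its paralogue Hnrnpll (-0.70), both of which bind CA repeats. None of the 8 held with each library left out. The higher genes numbered 0 without NPC day 0 replicate 1 or 2, 1 without NPC day 12 replicate 1 and 2 without NPC day 12 replicate 2. The lower genes numbered 1 without NPC day 0 replicate 1 or NPC day 12 replicate 2 and 2 without NPC day 0 replicate 2 or NPC day 12 replicate 1. A fit of the compared groups alone gave 8 higher and 7 lower. Between these groups all 7 fibroblast and 5 of 6 neural progenitor markers were lower. The remaining one, the induced factor Sox2, was higher (0.87). The part of these genes was not tested.

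**Figure D5:**
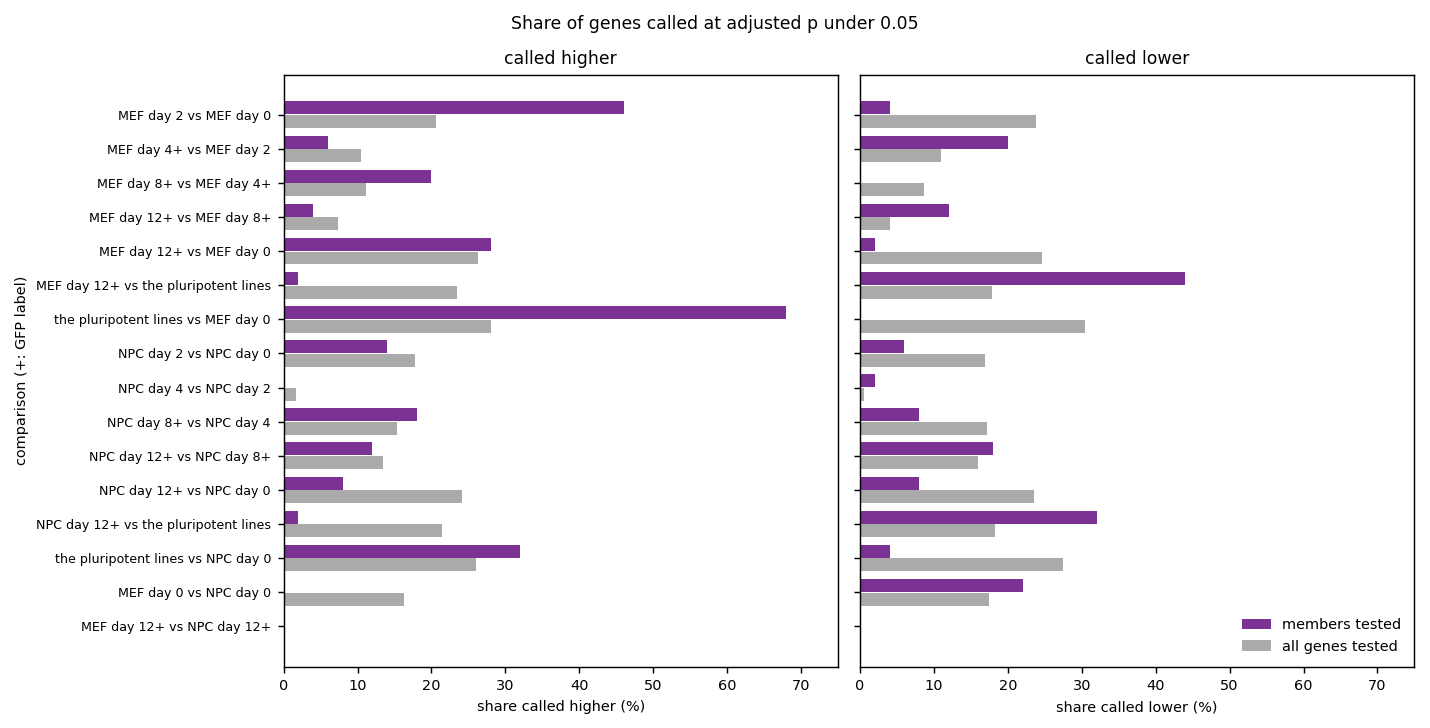
Share of the 50 tested genes (upper bar of each pair) and of all genes tested (lower bar) called higher (left) and lower (right) in 16 comparisons, in percent, at adjusted p under 0.05. The bars of the 50 genes are longest for the lines over MEF day 0 on the left (34 of 50 genes) and for MEF day 12 against the lines on the right (22 of 50).

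The pluripotent lines, with 1 library per line, had the highest SR and hnRNP sums. Relative to MEF day 0 34 of 50 genes were higher in the lines and none lower, against 28.1% and 30.5% of all genes. At an unadjusted p under 0.05 edgeR gave 35 higher and none lower, and DESeq2 called 35, all higher. Over all 15246 genes tested, 9606 had such a p in either direction and DESeq2 called 9113. All 10 snRNP genes tested were higher, as were 7 of 9 SF3, 7 of 11 SR and 10 of 20 hnRNP genes. Srsf3 was at 1213 CPM in R1 ESC and 1059 CPM in SKM iPSC, against 251 and 132 CPM on MEF day 0 (2.49 ± 0.32, adjusted p = 0.00015). Srsf7 was at 586 and 389 CPM in the lines, against 121 and 54.4 CPM on MEF day 0 (2.37 ± 0.39). Hnrnpc, which binds U tracts, was at 989.5 and 1043 CPM in the lines, against 309.7 and 284 CPM on MEF day 0 (1.71 ± 0.26). Not all of the 34 calls held with each library left out, and the fewest were made without MEF day 0 replicate 2. With only the compared groups in the fit 15 were called. Beside these calls 11 of 12 cell cycle genes were higher in the lines and all 7 fibroblast and 5 of 6 macrophage markers lower, and their part was not tested.

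Relative to NPC day 0 16 genes were higher in the lines and 2 lower, against 26% and 27.5% of all genes. Of the 10 snRNP genes 7 were higher. The calls that held with each library left out were Srsf3 (1.73), Snrpa1 (1.59), Srsf7 (1.49), Hnrnpc (1.49), Snrpe (1.35) and Snrpb2 (1.04). The lower genes were Srsf12 (-1.74) and Hnrnpll (-0.67). The higher genes numbered 6 without NPC day 0 replicate 2 and 10 without NPC day 0 replicate 1, and with only the compared groups in the fit 34 were higher and 4 lower. Between these groups 8 of 12 cell cycle genes were higher and 6 of 7 fibroblast and 5 of 6 neural progenitor markers lower in the lines. The remaining neural progenitor marker, Sox2, was higher in the lines (1.53). The part of these genes was not tested.

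On day 12 the cells lay below the lines in many of the genes, though some of these, such as Snrpe, had been above the lines before. Snrpe was at 291 and 243 CPM on MEF day 4, against 182 CPM in R1 ESC and 189 CPM in SKM iPSC. In MEF-derived cells on day 12, 22 of 50 genes were lower than in the lines and 1 higher, against 17.9% and 23.5% of all genes. Sf3a2 was at 93.3 and 67.2 CPM on MEF day 12, against 185 CPM in R1 ESC and 194 CPM in SKM iPSC (-1.21 ± 0.26, adjusted p = 0.00504). Srsf10 was at 181 and 225 CPM on day 12, against 434 and 411 CPM in the lines (-1.02 ± 0.22). Hnrnpd was at 169.6 and 205 CPM, against 378 and 407 CPM in the lines (-1.03 ± 0.21). In these 3 the groups did not overlap, and with Sf3b4 (-1.12), Sf3a3 (-0.93) and Sf3a1 (-0.90) they are the calls that held with each library left out. The number lower was 9 without MEF day 12 replicate 2, 12 without R1 ESC, 13 without SKM iPSC and 14 without MEF day 12 replicate 1, and with only the compared groups in the fit 11 were lower and none higher. Beside these calls 10 of 12 cell cycle genes were lower and 4 of 7 fibroblast and 4 of 5 epithelial markers higher on day 12, and their part was not tested. The higher gene was Srsf11, an SR-related protein, at 254 and 403 CPM on MEF day 12, against 190.5 and 202 CPM in the lines (0.78 ± 0.26), called only with MEF day 12 replicate 2 and both lines in the fit.

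In NPC-derived cells on day 12, 16 genes were lower than in the lines and 1, Srsf11, higher (1.01 ± 0.32), against 18.3% and 21.4% of all genes. Hnrnpl was at 251 and 211 CPM on NPC day 12, against 473 and 488 CPM in the lines (-1.04 ± 0.21), and this was the call that held with each library left out. Srsf3 was at 522 and 421 CPM, against 1213 and 1059 CPM in the lines (-1.25 ± 0.28). The number lower was 2 without NPC day 12 replicate 2, 7 without NPC day 12 replicate 1, 11 without R1 ESC and 12 without SKM iPSC. Between these groups 8 of 12 cell cycle genes were lower and 4 of 5 epithelial markers higher on day 12, and their part was not tested. Both comparisons use the same libraries of the lines. Summed over the SR genes, levels were 2315 and 2819 CPM in MEF-derived and 2750.1 and 2822 CPM in NPC-derived cells on day 12, against 4186 CPM in R1 ESC and 3729 CPM in SKM iPSC.

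The courses of a few single genes follow. Srsf9 lay at 36.5 and 33 CPM in MEF-derived and 38.8 and 27 CPM in NPC-derived cells on day 12, against 66.8 and 54 CPM in MEFs and 69.1 and 58.7 CPM in NPCs on day 0, and at 65.6 and 78.2 CPM in the lines. Srsf12 was at 0.445 and 0.75 CPM in NPC-derived cells on day 12, against 4.56 and 4.27 CPM in NPCs on day 0, and at 0 to 0.559 CPM in MEF-derived cells of days 2 to 12, so its fold changes rest on few counts. Sf3b1 was called in none of the 17 comparisons. Neither were Hnrnph2, Hnrnpul1 and Hnrnpk, which binds C-rich stretches. Hnrnpk had 1045 and 1221 CPM on MEF day 2, against 759.9 and 901 CPM on day 0 (0.39 ± 0.23), near the hnRNP median of 0.45. Hnrnpu peaked among MEF-derived libraries at 1249 CPM in day 12 replicate 2, where replicate 1 had 792 CPM.

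Other genes of the pathway were counted from lists. Of 12 tested genes for snRNP assembly, the SMN complex and the methylosome that place Sm rings on RNA, 11 rose and 1 fell in MEFs on day 2, where 20.6% of all genes rose and 23.8% fell, and 9 rose in NPCs, where 17.8% of all genes rose. Gemin5, which recognises snRNA, was at 196 and 239 CPM on MEF day 2, against 41.6 and 57.1 CPM on day 0 (2.08 ± 0.25), and Gemin6, of the same complex, rose by 2.40. Prmt5, which methylates Sm proteins, was at 269 and 327 CPM on day 2, against 65.3 and 79.6 CPM on day 0 (1.98 ± 0.23). On day 12 relative to day 8, 4 of the 12 fell and none rose in MEF-derived cells, where 4.1% of all genes fell and 7.33% rose. Of 47 tested subunits of the spliceosome outside the 4 classes 26 rose and none fell in MEFs on day 2, and 11 rose in NPCs, against the same shares of all genes. The largest changes there were those of Prpf4 (1.67), of the U4/U6 snRNP, Lsm7 (1.58) and the helicase Aqr (1.47).

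Of 15 genes for SR protein kinases, their importer and partner proteins, 5 fell and 2 rose on MEF day 4 relative to day 2, where 10.9% of all genes fell and 10.5% rose. The falls were Prpf4b (-1.56), Tra2b (-1.46), Srpk1 (-1.31), Clk2 (-0.95) and Son (-0.84). Tra2b, an SR-like splicing activator, was at 81.8 and 121 CPM on day 4, against 295 and 268 CPM on day 2, and Srpk1, a kinase of SR proteins, at 74.7 and 87.3 CPM, against 198 and 206 CPM. The rises were the nuclear SR kinases Clk3 (1.35) and Clk4 (0.95). On day 12 relative to day 8, 3 of the 15 rose in MEF-derived cells, where 7.33% of all genes rose, among them Clk1 (1.32) and Clk4 (1.37). Among 21 tested regulators of cell-type splicing 8 rose and 3 fell in MEFs on day 2, against 20.6% and 23.8% of all genes. Esrp1, an epithelial regulator, was at 88.1 and 71.1 CPM in MEF-derived and 33.9 and 69 CPM in NPC-derived cells on day 12, against 3.25 and 5.85 CPM in the lines. Mbnl2, of a family that opposes the splicing pattern of embryonic stem cells, was at 44.4 and 39 CPM in MEFs on day 2, against 177 and 403 CPM on day 0 (-2.85 ± 0.50).

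The authors' deposited table gives its own fold changes and adjusted p-values, with no test named, and called fewer of these genes at adjusted p under 0.05. On MEF day 4 over day 2 the authors' deposited table lists Srsf1 (log2 fold change -2.18, adjusted p = 0.00684), Srsf5 (-2.03) and Srsf6 (-1.88), and on MEF day 8 over day 4 the same 3 genes (2.11, 2.36 and 1.85). In the NPC series the authors' deposited table lists Snrpa1 (1.69) and Srsf12 (-2.96) on day 2, Srsf2 (3.03) on day 12 over day 8 and Srsf12 (-2.89) on day 12 over day 0. In the authors' deposited table no other gene of the 51 passed that threshold in the comparisons examined. It thus called none of them on MEF day 2 over day 0, where 23 rose and 2 fell by edgeR's test. Nor did it call any on MEF day 12 over day 8 or over day 0.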

How the data were processed

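RNA-seq libraries were analysed for 22 of the 33 samples of the series. The deposited tables hold whole-number read counts per gene, although their title speaks of FPKM, and the values were treated as counts. Reads were checked with FastQC and aligned with STAR 2.5.1b to mm9, per the submitters' processing notes, and the counter, annotation and strand setting are not given in the sources used here. The authors' log2 fold changes and adjusted p-values stand in the same deposited tables.

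Genes with at least 1 CPM in 2 or more libraries entered 3 fits: MEF with the lines (15246 genes), NPC with the lines (15565) and all 22 libraries (16188), the last for comparisons between MEF and NPC. Each used TMM and edgeR 4.0.16 in R 4.3.3, with all groups sharing 1 estimate of the spread and Benjamini-Hochberg adjustment over all genes of the fit. The lines entered as separate groups whose mean was compared. With 1 library each they added nothing to the estimate of the spread, which came from the MEF and NPC groups. Where leaving out a library left 1 in a group, that library was assumed to vary like the other groups. The procedure was run on simulated data in which a small part of the genes changed strongly. That setting does not cover the smaller changes or the many changed genes found here. Alternatives used limma 3.58.1 and DESeq2 1.42.0. Genes named were a fixed set, the 3 of largest change per class and comparison and called genes that moved against their class, with further called genes named after their values were seen. Members and lists were chosen with earlier results of these data known. The ChIP-seq peaks are not used here.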

Additional observations from a re-analysis of the deposited data

Results flagged for a closer look

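For 2 genes the change on day 2 differed between the cell types by a test of the difference itself. The change in MEFs exceeded that in NPCs by 0.83 ± 0.23 for Sf3a1 (log2 ± SE, adjusted p = 0.0365) and by 0.95 ± 0.27 for Sf3b3 (adjusted p = 0.0429), in edgeR's quasi-likelihood test over all genes. Neither call held with each library left out in turn. In this interaction 0 genes were called higher with RLE size factors, without the filter on low counts and with only the compared groups in the fit, 4 with DESeq2 and with quantile normalization, and 6 with the replicate block. With 2 libraries in each MEF and NPC group and 1 per line, no group was large enough to look for single outlying samples.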

How the results depend on the processing

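Of the 223 calls over the 17 comparisons, 66 held with each library of the compared groups left out in turn. With 2 libraries per group and 1 per line, counts of calls are the least stable values here, and genes with few counts (Srsf2, Srsf12, Hnrnph3, Snrpf) the least precise ones. The cause of each change below was not tested.

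With a library left out, the genes higher and lower ranged as follows. In MEF-derived cells they were 11 to 24 and 0 to 2 on day 2 over day 0, 0 to 3 and 4 to 8 on day 4 over day 2, 0 to 2 and 0 to 6 on day 12 over day 8, 7 to 15 and 0 to 2 on day 12 over day 0, and 0 to 1 and 9 to 14 on day 12 over the lines, with 3 to 4 higher on day 8 over day 4. In NPC-derived cells they were 1 to 3 and 1 on day 2 over day 0, 2 to 14 and 0 to 11 on day 8 over day 4, 0 to 16 and 0 to 13 on day 12 over day 8, 0 to 2 and 1 to 2 on day 12 over day 0, and 0 to 1 and 2 to 12 on day 12 over the lines, with 0 lower on day 4 over day 2. They were 6 to 13 and 0 to 1 in the lines over NPC day 0 and 0 to 1 and 6 to 13 in MEFs over NPCs on day 0, and 0 to 7 were higher in the interaction on day 2.

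With only the compared groups in the fit, the counts higher and lower in MEF-derived cells were 12 and 0 on day 2, 17 and 12 on day 8 over day 4, 2 and 0 on day 12 over day 0, and 0 and 11 on day 12 over the lines; 6 were higher on day 4 and 1 on day 12 over day 8. In NPC-derived cells they were 0 and 1 on day 8 over day 4, 1 and 2 on day 12 over day 8, and 8 and 7 on day 12 over day 0; 11 were higher on day 2, 0 lower on day 4 and 2 higher on day 12 over the lines. In the lines 15 were higher over MEF day 0, and 34 higher and 4 lower over NPC day 0. On day 0 3 were lower in MEFs than in NPCs, and 0 were called in the interaction.

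DESeq2 gave 5 higher on MEF day 4, 2 lower on MEF day 8, 10 lower on MEF day 12 over day 8, 7 lower on NPC day 4, 14 lower on NPC day 12 over day 8, 1 lower in the lines over NPC day 0 and 4 higher in the interaction. Without a filter on low counts there were 1 lower on MEF day 2, 7 higher on MEF day 4, 3 lower on MEF day 8, 5 higher on MEF day 12 over day 8, 2 lower on MEF day 12 over day 0, 2 higher on NPC day 2, 2 higher on NPC day 12 over day 0 and over the lines, and 0 in the interaction. RLE size factors gave 3 higher on NPC day 2, 0 lower on NPC day 4, 1 higher on NPC day 12 over day 0 and 0 in the interaction. Upper quartile scaling gave 1 lower on MEF day 2 and on MEF day 8, and 1 higher on NPC day 12 over day 0. The fit of all libraries gave 2 lower on MEF day 12 over day 0, 0 higher on MEF day 12 over the lines, 3 lower on NPC day 4 and 1 lower in the lines over NPC day 0.

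Quantile normalization with limma-voom gave 1 lower on MEF day 2, 2 lower on MEF day 12 over day 0, 14 lower on MEF day 12 over the lines, 2 lower on NPC day 4, 4 higher on NPC day 8, 16 higher on NPC day 12 over day 8, 1 lower in the lines over NPC day 0, 22 lower in MEFs over NPCs on day 0 and 4 higher in the interaction. It turned the lines over NPC day 0 to -0.11 for Hnrnpa2b1, -0.058 for Hnrnpu and -0.12 for Hnrnpa1.

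The replicate numbers were not shown to pair the libraries in all groups, as the correlation of deviations between groups ran from -0.089 to 0.703. The highest value was that of MEF day 2 with NPC day 2, and the main fits had no term for the replicate. Between MEF days 0, 2 and 12 and NPC days 2, 8 and 12 the correlation was positive for each pair, at 0.226 to 0.703. In these groups same-numbered libraries thus deviated together, and whether they shared a batch was not tested. Replicate number 3 belongs to a single library, of MEF day 4, which the replicate block therefore fitted exactly. With the block, comparisons with MEF day 4 thus rested on its replicate 1, much as when replicate 3 was left out. With the replicate block there were 0 higher and 4 lower on MEF day 4, 5 higher on MEF day 8, 0 higher on MEF day 12 over the lines, 3 lower on NPC day 4, 15 higher on NPC day 8, 9 higher on NPC day 12 over day 0, 1 lower in the lines over NPC day 0, 17 lower in MEFs over NPCs on day 0 and 6 higher in the interaction, and Srsf12 turned to 3.36 on MEF day 8 over day 4.

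Leaving out a library turned the direction of values that were not called: Srsf12 ranged from -4.51 to 0.31 on MEF day 4, from -3.87 to 3.27 on MEF day 8 and from -1.13 to 0.17 in the lines over MEF day 0, Snrpg from -1.51 to 0.00019 on MEF day 12 over day 8, from -0.26 to 1.04 on NPC day 2 and from -0.26 to 1.89 in the interaction, Snrpb from -0.083 to 1.01 and Snrpc from -0.0081 to 1.44 on MEF day 12 over day 0, Srsf1 from -0.86 to 1.28 on NPC day 8, and Hnrnpab from -0.14 to 1.08 in MEFs over NPCs on day 0. The alternatives on peaks at promoters were not run, since the peaks are on mm9 and the promoter table on GRCm38.p6.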
